A study of Tupaia belangeri with 6 samples.

Results

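The genes of RIG-I-like receptor signalling and 6 interferon-stimulated effectors were sought by name in RNA-seq of the tree shrew prefrontal cortex (PFC). The 9 names were IFIH1, DHX58, MAVS, IFIT1, IFIT2, IFIT3, ISG15, MX1 and MX2, and DDX58 (also RIGI), the gene of RIG-I itself, was looked for beside them. Of the 9 names, 2 (IFIT2 and MX2) were carried by a locus among the 95863 loci of the abundance tables, and the other 7, DDX58 and RIGI had no locus of that name. Copies of a member marked "li" were not counted, and none was present. The PFC was taken from adult Chinese tree shrews with no treatment, namely females 1, 3 and 4 and males 1, 4 and 5 (n = 3 each). Each male was listed as older than each female, so sex and age cannot be told apart. Polyadenylated RNA of each animal was sequenced as 1 library, and no strand-specific protocol is named in the sources used here, so reads of overlapping loci on opposite strands cannot be told apart. Expression is given as TPM, an abundance scaled to transcript length and to the library, which keeps no sequencing depth.

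Cells recognise viral RNA in the cytoplasm through helicases of the RIG-I-like receptor family. RIG-I and MDA5 (IFIH1) pass the signal to MAVS, an adaptor on the outer mitochondrial membrane, whereas LGP2 (DHX58) has no signalling domain and modulates the other receptors. The kinase TBK1 and the factors IRF3 and IRF7 then switch on type I interferon, and secreted interferon acts through its receptor and the JAK-STAT pathway to raise the interferon-stimulated genes. Among these, IFIT proteins bind RNA and restrict its translation, ISG15 is a ubiquitin-like modifier, and MX1 and MX2 are GTPases that block viruses. RIG-I has been reported as lost from tree shrews.

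The libraries came from neuronal tissue. Of 12 neuron markers, 10 had a locus, and the strongest, SNAP25, stood at 3088 to 4861 TPM. NEFL, at a locus of only 1993 bp, was listed at 0 in all 6 animals. Microglia, the resident immune cells of the brain, were represented by 7 of 10 markers, each at or above 1 TPM in every animal, with a summed level of 243 to 280 TPM over the females and 188 to 332 TPM over the males. Of 12 leukocyte markers, 9 had a locus. CD3E, which defines T cells, was listed at 0 in every animal, and PTPRC, the pan-leukocyte gene, stood at 0.697 to 1.77 TPM. The strongest of the list was CD79A, a B cell receptor chain, at 10.5 to 30.4 TPM, and S100A8 stood at 5.82 to 15.1 TPM and CD8A at 1.64 to 5.14 TPM. The summed level of red blood cell genes (5 of 8 with a locus) was 1288 to 2553 TPM in the females against 68.9 to 112 TPM in the males, and that of oligodendrocyte genes (4 of 7) was 491 to 673 TPM against 133 to 370 TPM. The part of these cell types in the levels given here was not tested. In bulk tissue, fewer cells of a type and less RNA per cell cannot be told apart.

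MX2 was the more abundant of the named effectors. Its locus lay on chromosome 1 of TS_3.0, from 90696257 to 90783833 on the plus strand, and spanned 87577 bp. MX2 stood at 19.5, 16.2 and 5.68 TPM in females 1, 3 and 4, and at 23.5, 10.9 and 15.0 TPM in males 1, 4 and 5. Female 4 was the lowest of the 6 and male 1 the highest, and the sexes overlapped. The mean over all animals was 15.1 ± 6.28 TPM (SD, n = 6), a level above that of 51.5% of the 12782 named genes tested. The highest value was 4.13 times the lowest. Among 12933 genes at or above 1 TPM in every animal, 9.83% had a larger ratio of highest to lowest value, and the median ratio was 1.97.

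The spread was smaller in the read coverage of the same locus. Mean coverage over MX2 was 8.68, 8.73 and 8.55 reads per base in the females and 10.6, 6.46 and 6.47 reads per base in the males. In each library, 45.7% to 59.0% of loci with coverage over 1 shared a single ratio of TPM to coverage within 1%, called here the modal ratio. Coverage multiplied by that ratio gave a coverage-based level for MX2 of 6.20, 6.88 and 5.56 TPM in females 1, 3 and 4 and 7.81, 5.40 and 5.21 TPM in males 1, 4 and 5. The coverage-based mean was 6.18 ± 1.01 TPM (SD, n = 6), and its highest value was 1.50 times its lowest. Listed TPM was thus 1.02 times the coverage-based level in female 4 but 2.03 to 3.15 times that level in the other 5 animals. Loci above 2 times the modal ratio made up 17.0% to 22.0% of loci in the 6 libraries. The library of female 4 therefore fell lowest by TPM, but not by coverage, and the cause was not tested.

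IFIT2, a member of the IFIT family of RNA-binding proteins, was lower, and its listed TPM varied less than that of MX2. Its locus lay on chromosome 14 of TS_3.0, from 76215459 to 76225692 on the plus strand, and spanned 10234 bp. IFIT2 stood at 2.87, 4.02 and 2.71 TPM in females 1, 3 and 4, and at 3.05, 2.05 and 3.35 TPM in males 1, 4 and 5. Female 3 was the highest and male 4 the lowest, and the sexes overlapped. Its mean was 3.01 ± 0.656 TPM (SD, n = 6), above that of 26% of the named genes tested. The highest value was 1.96 times the lowest, and 50.5% of the genes at or above 1 TPM in every animal had a larger ratio. By coverage-based level the order of the spreads turned, with a ratio of highest to lowest of 1.96 for IFIT2 and 1.50 for MX2. Listed TPM of IFIT2 did not differ from the coverage-based level by more than 1% in any animal. Its coverage was 2.45 to 5.09 reads per base, and the number of reads behind it is unknown.

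**Figure D1:**
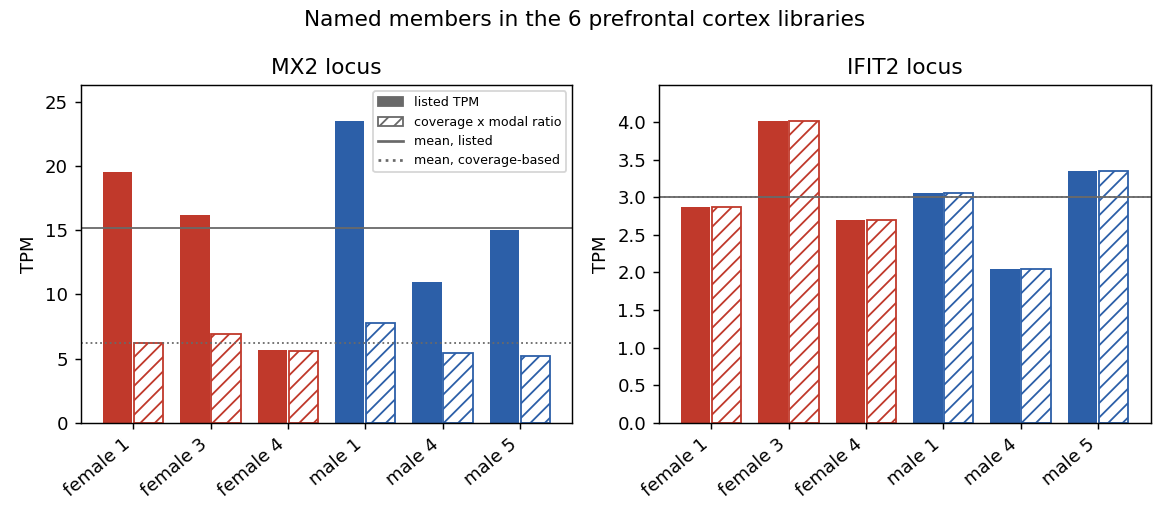
TPM of MX2 (left) and IFIT2 (right) in each of the 6 animals, with females in red and males in blue; filled bars are the listed TPM, hatched bars the coverage multiplied by the modal ratio of the library, and the horizontal lines their means over the 6 animals. Listed TPM of MX2 ranges from 5.68 to 23.5 and its coverage-based level from 5.21 to 7.81, while both bars of IFIT2 are equal within 1% in every animal.

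MX2 exceeded IFIT2 in 6 of 6 animals. The ratio of their TPM was 2.10 to 7.70 (median 4.91), and the mean difference in log2(TPM + 1) was 1.91 ± 0.61 (SD, n = 6). The exact paired permutation test, two-sided and over this 1 pair of genes, gave p = 0.03125, the smallest p it can give with 6 animals. By coverage-based level the ratio was 1.56 to 2.63, so the order was the same in every animal but the distance was smaller.

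Neither effector was called different between the sexes. For MX2, females had 13.8 ± 7.22 TPM and males 16.5 ± 6.40 TPM (SD, n = 3 each), a female minus male difference of -0.33 on the log2(TPM + 1) scale (SE 0.46, 95% interval -1.37 to 0.71), with an adjusted p of 0.952 by limma with Benjamini-Hochberg adjustment. For IFIT2, females had 3.20 ± 0.714 TPM and males 2.82 ± 0.678 TPM (SD, n = 3 each), a difference of 0.14 (SE 0.46, 95% interval -0.90 to 1.18), with an adjusted p of 0.984 by limma with Benjamini-Hochberg adjustment. The intervals allow a difference of 1 log2 unit in at least 1 direction for each gene. The exact two-sided permutation p was 0.7 for MX2 and 0.6 for IFIT2, where 3 animals against 3 cannot go below 0.1. Among 28740 genes tested, 5 were called at an adjusted p under 0.1 (0.0174%), and 1439 had an unadjusted p under 0.05 (5.01%); 0 of the 2 members passed either threshold. Without female 4, the MX2 difference was 0.17, and from the coverage column it was 0.02, so its direction turned in both cases. The IFIT2 difference turned to -0.01 without male 4 and was 0.43 under quantile normalization.

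The 7 unnamed members were then sought by gene order. In the RefSeq annotation of another tree shrew assembly, TupChi_1.0, all 9 members are listed, and DDX58 and RIGI are not. Of 16150 protein-coding symbols of that annotation, LOC names left out, 11767 (72.9%) had a locus of that name here, against 2 of the 9 members. The neighbours of each member in TupChi_1.0 were located on TS_3.0, and the loci between them were examined. A locus in such an interval is described by its position alone, and its identity with the missing gene was not established.

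**Figure D2:**
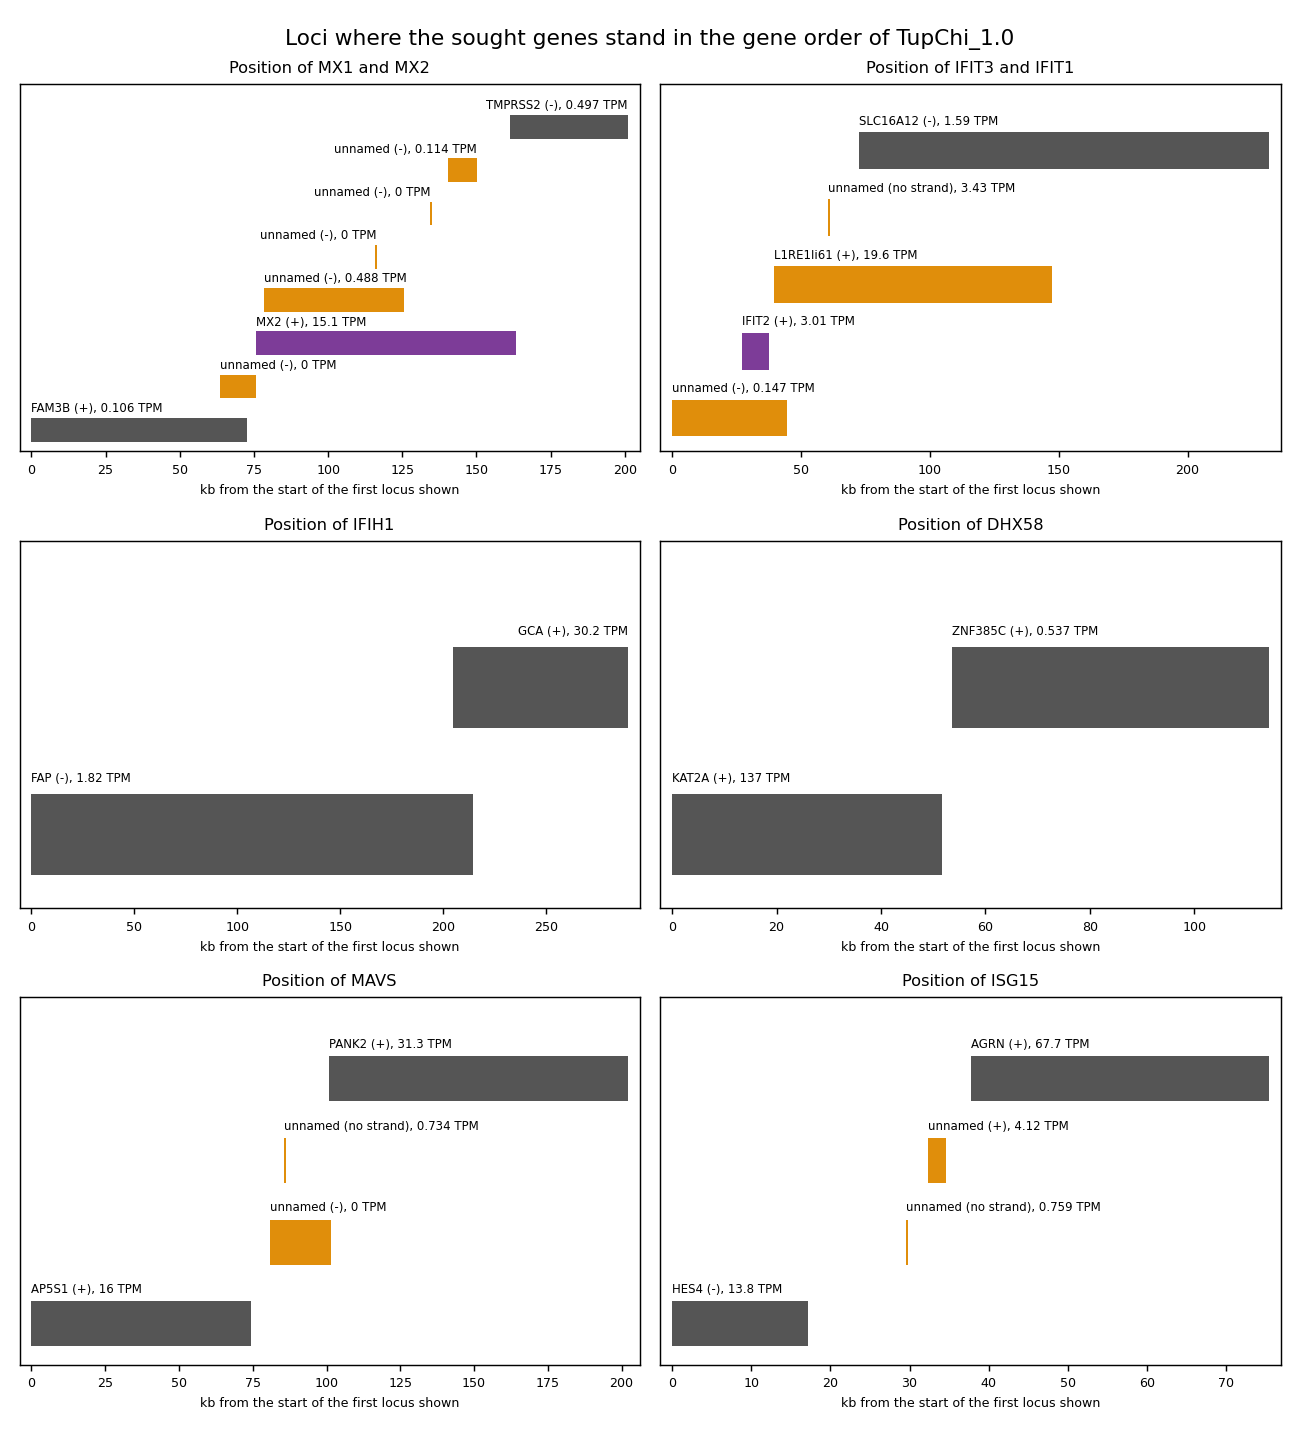
Loci of TS_3.0 around the positions of MX1 and MX2, IFIT3 and IFIT1, IFIH1, DHX58, MAVS and ISG15, in kb from the start of the first locus shown; grey bars are the flanking genes, purple bars the named members and orange bars other loci, each with its strand and mean TPM over 6 animals. The MX2 bar runs through its interval up to TMPRSS2, the bars of FAP and GCA overlap, and L1RE1li61 runs from beside IFIT2 into SLC16A12.

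The receptors came first in this order. IFIH1, which encodes the double-stranded RNA sensor MDA5, lies between FAP and GCA in TupChi_1.0. Here the loci of FAP (chromosome 1, 143480916 to 143695614, minus strand) and GCA (143685466 to 143770650, plus strand) overlapped by 10149 bp, leaving no interval for IFIH1 between them. The FAP locus, whose gene encodes a membrane serine protease, stood at 1.55, 1.55 and 1.58 TPM in the females and at 1.67, 3.74 and 0.83 TPM in the males, and GCA, a calcium-binding protein, at 22.2 to 38.4 TPM. Male 4 was the highest for FAP by listed TPM, at 8.99 times its coverage-based level against 3.01 to 3.25 times in the others, but the second lowest by coverage-based level (0.416 TPM). GCA carried 3.26 to 4.26 times its coverage-based level. How many reads of the FAP and GCA loci came from IFIH1, if any, cannot be told here.

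DHX58, the gene of LGP2, stands between KAT2A and ZNF385C, with CUNH17orf113 beside it. The 1951 bp between their loci (on chromosome 15, KAT2A at 64901428 to 64953167 and ZNF385C at 64955119 to 65015659, both on the plus strand) held 0 loci. KAT2A, a histone acetyltransferase, stood at 108 to 168 TPM and ZNF385C at 0 to 1.61 TPM. The KAT2A locus spanned 51740 bp and carried 2.03 to 2.54 times its coverage-based level. For ZNF385C this was 5.99 to 6.65 times where above 0. How many reads of these loci came from DHX58, if any, cannot be told here.

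RIG-I itself showed no trace by name. In other mammals DDX58 lies between TOPORS and ACO1. The loci of these genes on chromosome 2 of TS_3.0 (TOPORS at 126068668 to 126153564, plus strand; ACO1 at 126141986 to 126217604, minus strand) overlapped by 11579 bp, and TupChi_1.0 lists LOC106734318 and TZMP1 between them. TOPORS, a ubiquitin and SUMO ligase, stood at 9.63, 10.7 and 10.3 TPM in the females and 24.9, 9.34 and 35.4 TPM in the males. Males 1 and 5 were thus above the other 4 animals, which lay within 9.34 to 10.7 TPM. Their coverage-based levels were 10.2 and 8.17 TPM, against 6.63 to 8.01 TPM in the others. ACO1, the iron regulatory protein, stood at 5.68 to 16.2 TPM. The 2 males with high TOPORS also had the highest share of TPM on loci without a strand, at 5.16% and 7.88% against 2.30% to 3.33% in the other animals, and the part of this in the TOPORS values was not tested. The absence of the name cannot tell a lost gene from an unnamed one.

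MAVS, the adaptor, lies between AP5S1 and PANK2. On chromosome 9 the loci of AP5S1 (80219345 to 80293811) and PANK2 (80320137 to 80421488), both on the plus strand, were 26325 bp apart. Of 2 loci in that gap, 0 were above 0 TPM in all animals. The AP5S1 locus, named for a subunit of an adaptor complex in endosomes, stood at 22.9, 22.9 and 8.90 TPM in the females and 12.3, 15.8 and 13.5 TPM in the males, which was 6.36 to 13.7 times its coverage-based level. PANK2, an enzyme of coenzyme A synthesis, stood at 27.0 to 38.4 TPM. How many reads of these loci came from MAVS, if any, cannot be told here.

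Among the effectors, IFIT3 and IFIT1 follow IFIT2 in TupChi_1.0, together with IFIT1B, IFIT5 and 1 unnamed gene, before SLC16A12. The 35207 bp between IFIT2 and SLC16A12 (76260900 to 76419642 on chromosome 14) held 3 loci, of which 2 were above 0 in every animal. The longer, named L1RE1li61, a name of a LINE-1 copy, ran from 76227790 to 76335456 on the plus strand, the strand of IFIT2. It stood at 17.7, 21.2 and 17.7 TPM in the females and 17.7, 19.6 and 23.7 TPM in the males, above IFIT2 in 6 of 6 animals. Its listed TPM was 6.14 to 7.06 times its coverage-based level, and by that level (2.78 to 3.60 TPM) it was above IFIT2 in only 3 of 6. The other was a locus of 836 bp without a strand, at 0.84 to 5.53 TPM. A locus of 1583 bp named IFIT1B lay elsewhere, on chromosome 3, and was listed at 0 in every animal.

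ISG15 is the only gene between HES4 and AGRN in TupChi_1.0. The loci of HES4 (chromosome 12, 68711041 to 68728173, minus strand) and AGRN (68748767 to 68786395, plus strand) were 20593 bp apart and held 2 unnamed loci. The longer, from 68743403 to 68745680 (2278 bp, plus strand), stood at 3.03, 2.33 and 4.65 TPM in the females and 4.03, 6.91 and 3.75 TPM in the males. Male 4 was the highest and female 3 the lowest, and the sexes overlapped. This mean of 4.12 ± 1.59 TPM (SD, n = 6) lay near that of IFIT2, but a match to ISG15 could not be made from position alone.

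MX1 and MX2 are neighbours, and TupChi_1.0 lists no other gene between FAM3B and TMPRSS2. The interval between the loci of these flanks was 88747 bp on chromosome 1, the named MX2 locus ran through nearly all of it, and overlapped the TMPRSS2 locus (90781835 to 90821641) by 1999 bp. Of 6 loci in this interval, only MX2 was above 0 TPM in all animals. Reads of MX1 and of MX2 therefore cannot be told apart in this locus, and the values given for MX2 may hold those of both.

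**Figure D3:**
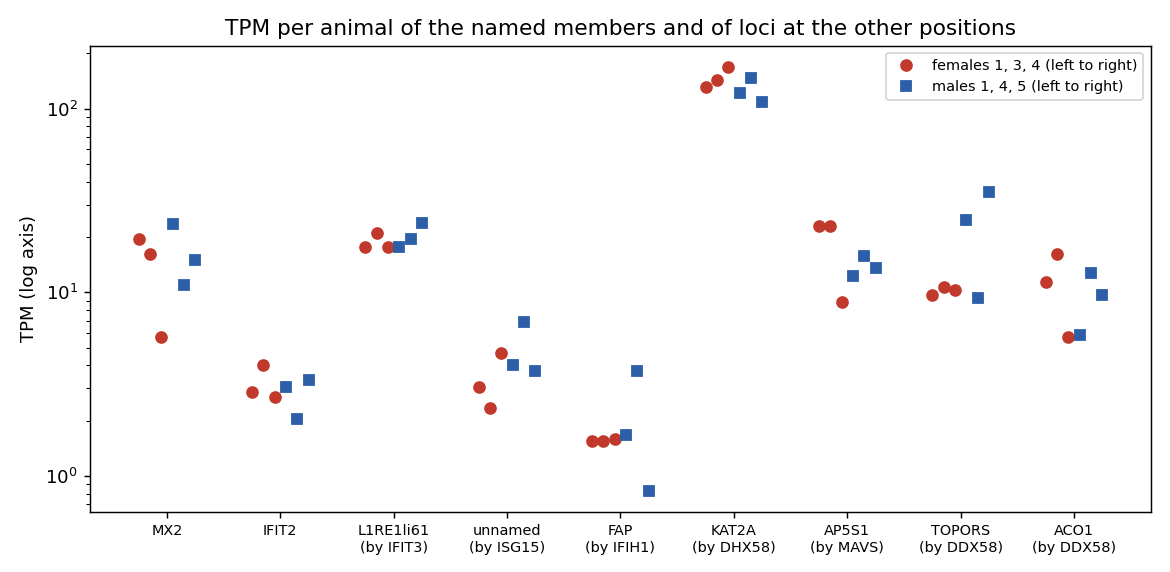
TPM per animal on a log axis for MX2, IFIT2 and 7 loci at the positions of other members or of DDX58, with females as red circles and males as blue squares. The MX2 points spread from 5.68 to 23.5 TPM, the L1RE1li61 points from 17.7 to 23.7 TPM, and the TOPORS points of males 1 and 5 stand above the other 4.

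The 5 named genes whose profile over the 6 animals was most like the mean of MX2 and IFIT2 were ADAM23, IDI1li1, TRNT1li1, EPS15 and TASOR2. Likeness was the root mean square distance between centred log2(TPM + 1) values, which was 0.05 to 0.07 for these genes among 12780 compared. ADAM23, a neuronal adhesion protein, stood at 77.3, 82.0 and 47.1 TPM in the females and 85.8, 52.8 and 73.8 TPM in the males. Female 4 and male 4 were the low animals of this profile, as they were for listed TPM of MX2. By coverage-based level, MX2 was lowest in males 5 (5.21 TPM) and 4 (5.40 TPM). With 6 animals and many genes compared, this is a description of these libraries.

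Levels of the regulators of receptor signalling covered a wide range. Of 31 regulators and signalling genes sought, 23 had a locus and 20 stood at or above 1 TPM in every animal. TRAF6, a ubiquitin ligase, and MFN1, a mitochondrial fusion GTPase, were the 2 listed at 0 in all 6. Their loci spanned only 1254 and 544 bp, and whether these hold the whole genes was not tested. The strongest were PPP1CA, the phosphatase that activates RIG-I and MDA5, at 185 to 255 TPM, MFN2, a mitochondrial fusion GTPase that binds MAVS, at 109 to 169 TPM, and TOMM70, a mitochondrial import receptor that MAVS engages, at 37.1 to 68.7 TPM. ZCCHC3, a co-receptor for RNA, was listed at 20.6 to 57.9 TPM, but its locus carried 8.03 to 13.0 times the coverage-based level and its neighbours in TupChi_1.0 had no locus of their names. TBKBP1, an adaptor of TBK1, stood at 40.1, 37.8 and 49.8 TPM in the females and 31.1, 31.6 and 22.5 TPM in the males. IRF7, the main inducer of interferon alpha, stood at 4.91, 4.19 and 4.32 TPM in the females and 1.64, 2.22 and 1.44 TPM in the males. In both genes, which the rule took for their low p, every female stood above every male. With either sex higher, the sexes did not overlap in 3 of the 20 genes tested in this list (15.0%) and in 9.81% of all genes tested. Neither passed the test. The unadjusted p by limma was 0.0244 for TBKBP1 (difference 0.57, SE 0.21) and 0.0552 for IRF7 (0.99, SE 0.45), and the adjusted p was 0.925 for each.

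Of 17 other nucleic acid sensors and their partners, 14 had a locus and 9 stood at or above 1 TPM in every animal. DDX3X, an RNA helicase, was listed at 146 to 279 TPM on an unplaced contig and was not tested. Its listed TPM was 2.13 to 2.99 times its coverage-based level, and its neighbours in TupChi_1.0 (NYX and LOC102485568) had no locus of their names. TLR9, the endosomal DNA receptor, was listed at 127 to 228 TPM, which was 4.71 to 4.72 times its coverage-based level, and the locus of its neighbour TWF2 in TupChi_1.0 was absent by name. MYD88, the adaptor of TLR signalling, stood at 37.7 to 69.4 TPM and DHX9, an RNA and DNA helicase, at 35.2 to 59.5 TPM. UNC93B1, which carries TLRs to endosomes, stood at 4.56 to 5.02 TPM in the females and at 1.90 to 4.03 TPM in the males, and did not pass the test (difference 0.56, SE 0.43, adjusted p = 0.925 by limma).

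None of the interferon genes with a locus had a value above 0. Of 17 interferon ligands sought, 5 had a locus, and all of these (IFNW1, IFNK, IFNG, IFNL3 and IFNL4) were listed at 0 TPM in all 6 animals. Loci named DNAJA1 and SMU1, genes which most cells use, were also listed at 0. They spanned only 2569 bp on chromosome 1 and 358 bp on chromosome 14. Whether such loci hold the whole genes was not tested, so a listed 0 does not show that a gene was silent. Of 18 receptor and JAK-STAT genes, 8 had a locus and 6 stood at or above 1 TPM in every animal. JAK1, the kinase of the interferon receptors, stood at 29.4 to 53.5 TPM, IFNAR1, a chain of the type I receptor, at 16.3 to 27.7 TPM, and PTPN2, a phosphatase that dampens JAK signalling, at 17.3 to 27.2 TPM. The locus named PTPN11, also a phosphatase of the pathway, stood at 3.16 to 3.24 TPM in the females and 0.984 to 3.28 TPM in the males. It lay near AGRN on chromosome 12 (68789152 to 68804773). In TupChi_1.0 the neighbours of PTPN11 are RPH3A, which had no locus of its name, and HECTD4. Whether this locus is the gene was not established. The JAK1 locus carried 29.0 to 37.2 times its coverage-based level and that of PTPN2 5.51 to 6.21 times, so these levels depend on the measure. IFNAR2 and IFNGR2, neighbours of IFNAR1, had no locus of their names.

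Other interferon-stimulated genes lay mostly below the median level of the named genes. Of 81 sought, 53 had a locus, 29 stood at or above 1 TPM in every animal and 3 were listed at 0. The 46 that could be tested had a median mean of 4.18 TPM, against 14.2 TPM for all named genes tested and 2.42 TPM for all genes tested. The high values belonged to B2M, the light chain of MHC class I, at 194 to 262 TPM, PARP10, a mono-ADP-ribosyltransferase, at 54.3 to 133 TPM, IFI35 at 50.8 to 110 TPM and UBE2L6, the ISG15-conjugating enzyme, at 55.1 to 95.2 TPM. Listed TPM was 3.45 to 3.90 times the coverage-based level for PARP10, 3.60 to 5.76 times for UBE2L6 and 2.53 times for B2M. The PARP10 locus spanned 114769 bp, and its neighbours GRINA and PLEC in TupChi_1.0 had no locus of their names. MX2 was above the median of these genes and IFIT2 below it.

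**Figure D4:**
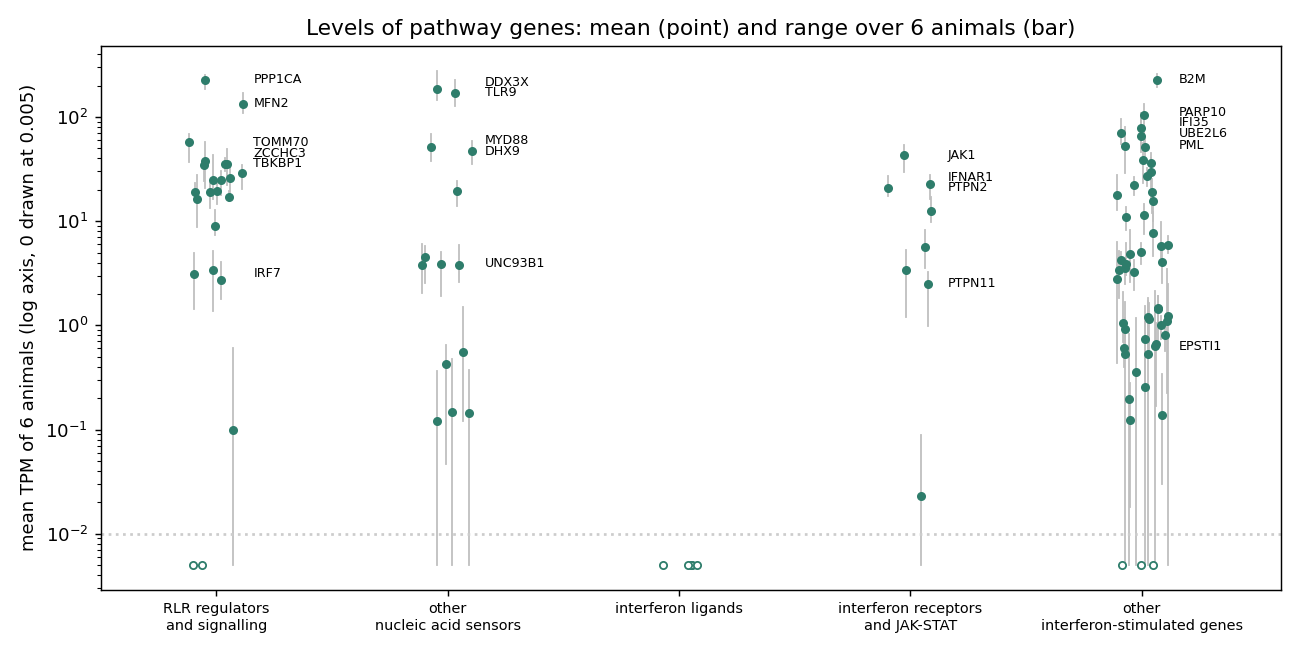
Mean TPM over 6 animals (points, log axis) and range from the lowest to the highest animal (bars) of the genes of each pathway list, with a mean of 0 drawn as an open point at 0.005 and genes named in the text labelled beside their list. All 5 interferon ligands with a locus sit at 0, while signalling genes reach the levels of PPP1CA (185 to 255 TPM).

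Over the 5 pathway lists, 103 of 164 genes had a locus and 81 could be tested. Of these, 0 were called by limma at an adjusted p under 0.1 (lowest adjusted p 0.925), against 0.0174% of all genes tested. An unadjusted p under 0.05 was reached by 3 (3.70%), against 5.01% of all genes and 3.74% of named genes, and this number was 1 without female 1, female 3 or male 5, 2 without male 1, 5 without female 4, 7 without male 4 and 0 with the animal number as a block. The 3 had higher means in females, a direction that 2.4% of all genes took at this threshold. Named genes leaned the same way, with 355 of 12782 passing it with higher means in females and 123 in males. They were TBKBP1, PML, which organises nuclear bodies, and EPSTI1. PML stood at 80.8, 72.8 and 45.1 TPM in the females and 47.6, 43.3 and 29.2 TPM in the males (difference 0.70, SE 0.27, unadjusted p by limma 0.0321), which was 3.49 to 4.07 times its coverage-based level, and its neighbours STOML1 and ISLR2 in TupChi_1.0 had no locus of their names. EPSTI1 stood at 0.734, 2.11 and 0.591 TPM in the females and 0.101, 0.223 and 0 TPM in the males (difference 0.89, SE 0.37, unadjusted p by limma 0.0413), at 2.65 to 4.27 times its coverage-based level where above 0. With either sex higher, the sexes did not overlap in 9 of the 81 (11.1%), against 9.81% of all genes. The mean was higher in females for 46 and in males for 35, and the median difference was 0.04 on the log2(TPM + 1) scale, against -0.03 for all genes tested and 0.04 for the named ones. Red blood cell and oligodendrocyte genes had a higher summed level in every female than in every male of these libraries, and the hemoglobin genes HBG and HBQ1 were called by limma (adjusted p = 0.00976 for each); their part in the pathway values was not tested.

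**Figure D5:**
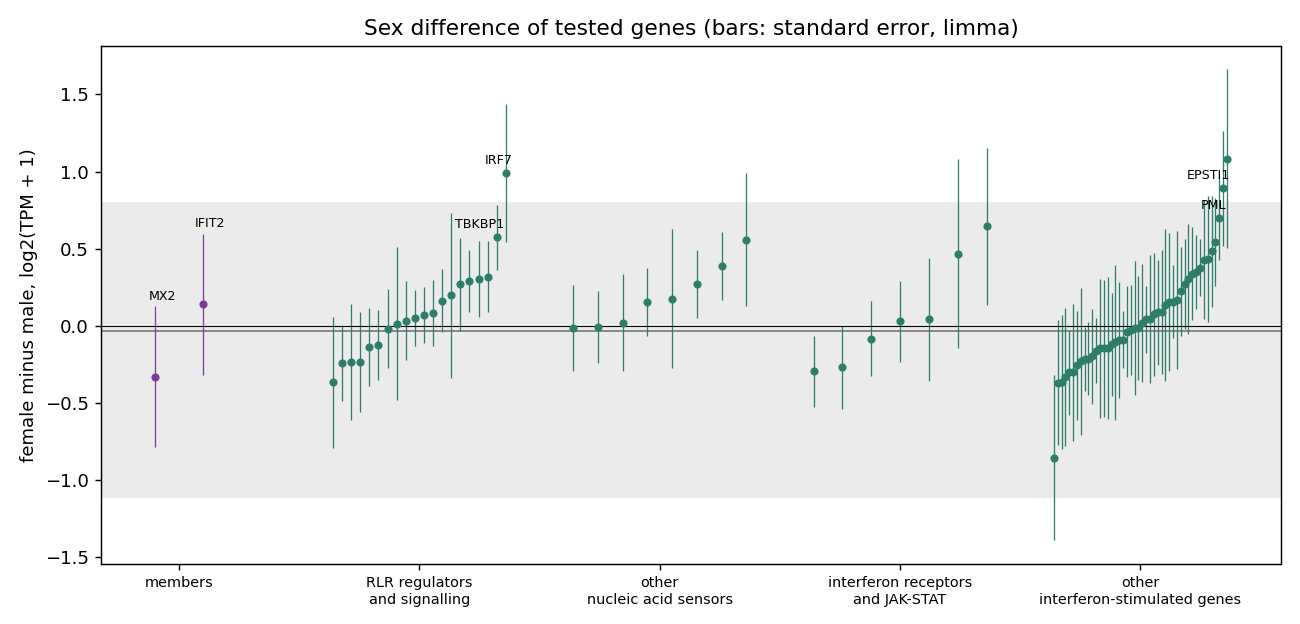
Female minus male difference in log2(TPM + 1) of each tested gene (points) with its standard error from limma (bars), for the members and 4 pathway lists; the grey band spans the 5th to 95th percentile of all 28740 genes tested and the grey line their median of -0.03. The points of MX2 (-0.33) and IFIT2 (0.14) lie inside the band, and their bars cross 0.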

How the data were processed

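RNA of the PFC was measured in 6 animals, each 1 library. The authors mapped reads to TS_3.0 with HISAT2 2.2.1 and assembled, merged and measured transcripts with StringTie 2.2.1. The deposited tables give each locus its mean coverage, FPKM and TPM, as the authors obtained them, and hold no read counts, so the depth behind a value is unknown and no counting intervals were computed. FPKM served as an alternative only.

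Entries of 1 gene ID on 1 chromosome or contig were summed. All genes that reached 0.1 TPM in 3 or more of the libraries entered 1 limma fit (version 3.58.1, R 4.3.3) of log2(TPM + 1), with a variance trend and no covariate. This scale understates the change of low genes. Adjustment (Benjamini-Hochberg, threshold 0.1) ran separately over autosomes and the X chromosome, and unplaced contigs were not tested. Other steps used Python 3.11.15, numpy 2.4.6, pandas 2.3.3 and matplotlib 3.10.9. In simulated data for this comparison with 28740 genes, limma recovered 8, 20, 34 and 41 of 50 genes changed by 1, 2, 3 and 4 log2 units, with 11 other calls, and made 0 calls without a change.

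The members and the lists were chosen with earlier results of these data known. Named are all members, loci at their positions, and in each list the 4 genes with the highest mean and the 2 with the lowest p. A gene so chosen is not reported here. Animal numbers name separate animals, so the main fit held no block for them. Gene order came from the RefSeq annotation of TupChi_1.0, whose coordinates were not used. Alternatives were pseudocounts of 0.1 and 0.01, no filter and a filter at 1 TPM, median-ratio and quantile scaling, FPKM, loci kept apart, a block for the animal number, limma with the trend switched off, joint adjustment, stranded genes only, each animal left out, and, chosen after seeing the data, the coverage column.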

Additional observations from a re-analysis of the deposited data

How the results depend on the processing

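The counts of 0 members and 0 pathway genes called held under all 19 alternatives run. The MX2 difference turned from -0.33 to 0.17 without female replicate 4 and to 0.018 from the coverage column, an alternative chosen after seeing the data, and the IFIT2 difference turned from 0.14 to -0.014 without male replicate 4; leaving out each animal gave a range of -0.64 to 0.17 for MX2 and of -0.014 to 0.24 for IFIT2. The other alternatives kept both directions, but the IFIT2 difference was 0.43 under quantile normalization, and the cause of these changes was not tested. With the animal number as a replicate block the differences were -0.55 for MX2 and 0.11 for IFIT2 and 0 members were called. Each gene's deviations from the mean of its sex were also correlated between females and males over 28740 genes. These correlations were 0.00098 for the animals numbered 1 and 0.038 for those numbered 4. Differently numbered animals gave -0.059 to 0.063. With 2 shared numbers and 3 animals per sex, this cannot decide whether the numbers pair animals. For the order of MX2 above IFIT2, leaving out each animal gave mean log2 differences of 1.78 to 2.13, with an exact permutation p of 0.0625, the smallest that 5 animals allow. Mean MX2 was 3.83 in FPKM, another unit, and 6.18 TPM from coverage times the modal ratio, and mean IFIT2 was 0.761 in FPKM. The number of reads behind each value is unknown, and its effect on the calls was not tested.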

Other observations

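Other antiviral genes downstream of interferon, chosen after their values were seen, had listed levels from 0 to above that of MX2. OAS2, which makes the second messenger that activates RNase L, stood at 3.85 to 6.24 TPM, EIF2AK2, the kinase PKR that halts translation on double-stranded RNA, at 4.92 to 7.20 TPM, and SAMHD1, which depletes deoxynucleotides, at 3.05 to 6.18 TPM. Listed TPM was 11.9 to 26.9 times the coverage-based level for OAS2, 1.40 to 1.57 times for SAMHD1 and at most 1.01 times for EIF2AK2. RSAD2, the viperin gene, stood at 0.718 to 1.90 TPM and IFI44 at 0.567 to 1.18 TPM. CXCL10, a chemokine that interferon gamma induces, ranged from 0 to 2.50 TPM. ADAR, the RNA editing enzyme that keeps self RNA from MDA5, was listed higher than these, at 23.4 to 56.7 TPM, which was 3.92 to 3.99 times its coverage-based level. None of the 7 was called between the sexes by limma, and the unadjusted p was lowest for ADAR, at 0.0892.

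In the DNA sensing pathway, CGAS, which makes the messenger for STING, was above 0 only in females 1 and 3, at 0.400 and 0.475 TPM (10.3 times its coverage-based level), and was not tested, whereas STING1 stood at 2.62 to 5.92 TPM in the 6 animals.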
